A study of Sus scrofa with 22 samples.

Results

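Skeletal muscle of newborn pigs, 1 day after birth (1 dpn), was compared with that of pigs 28 days after birth (28 dpn). Samples were chosen by their labelled stage alone, which gave 6 animals at each age, 12 of the 22 samples in the series. All 23999 probe sets of the Affymetrix porcine array other than controls were tested. All animals were offspring of German Landrace gilts that had eaten the gestational adequate protein [AP] diet, so both groups shared the diet and the labels separate them by age only. The labels give no sex, litter or feeding state. Offspring of 3 gilts were taken per stage, and which gilt bore which animal is not labelled. Animals entered the tests as independent, and p-values come out too low where littermates are alike. The other stages, 94 days after conception (94 dpc, 6 animals) and 188 days after birth (188 dpn, 4 animals), entered the fit for its estimate of spread.

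Liver stands as the tissue on every sample's label, and muscle in the title of the series. The summed signal of 13 measured muscle fibre markers ran from 340813 to 521845 over the newborn animals and from 729307 to 805084 at 28 dpn. That of 18 measured hepatocyte markers ran from 2648 to 14093 and from 2931 to 15537. The fibre markers were thus bright on all 12 arrays, and the tissue is called muscle here. Albumin and its fellow liver transcripts were nevertheless well above background on some of them, at 1 dpn most in replicates 3 and 4 and at 28 dpn in replicates 1 and 2. Albumin ALB read 929 and 651 in the former pair and 3173 and 1781 in the latter, against 6.10 to 237 and 10.2 to 136 in the other animals. Pancreas transcripts stood out in replicates 3 and 4 of 1 dpn and replicate 4 of 28 dpn. The carboxypeptidase CPA1 read 7632, 880.2 and 576 there and colipase CLPS 3059.5, 372 and 312, against at most 152 and 75.8 on the other arrays.

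Skeletal muscle fibres contract by the sliding of myosin along actin filaments, under calcium released from the sarcoplasmic reticulum. Fast fibres draw mainly on stored glycogen, glycolysis and phosphocreatine, and slow fibres on mitochondrial oxidation. In the weeks after birth pig muscle grows by enlargement of existing fibres, fibre types separate, and myosin of the fast types replaces developmental forms. In whole tissue, fewer cells of a type and less RNA per cell cannot be told apart.

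Of 23999 probe sets 5357 (22.3%) differed between both ages at an adjusted p under 0.05 (limma, Benjamini-Hochberg over all probe sets, n = 6 and 6). Of these 3344 were higher (13.9% of those tested) and 2013 lower (8.39%) at 28 dpn. The split depended on how arrays were scaled: the higher share of the calls was 62.4% as deposited, 49.8% after quantile normalization and 39.7% with array medians set equal, as the median probe set moved by log2 0.10, -0.036 and -0.092. The changes given here are as deposited and should be read against that shift. Called changes of at least log2 1, a doubling or its reverse, numbered 2722. The signals of the 6 newborn and the 6 older animals did not overlap for 8.03% of all probe sets, and 1892 of the called ones were among them. Counted once per named gene by its brightest probe set, 15.2% of 6765 genes were higher and 13.1% lower, and the median gene stood at log2 0.036. Each gene group is to be read against those shares, and a count near them is not a result about the group.

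The newborn arrays were not alike. The ratio of 5′ to 3′ signal of the beta-actin control, which falls when transcripts are shortened from their 5′ end, was 0.0306 to 0.0386 on replicates 2 to 5 of 1 dpn, against 0.201 and 0.0970 on replicates 1 and 6 and 0.147 to 0.238 at 28 dpn. The same ratio of the elongation factor EF1A control was 0.102 to 0.146 on the low arrays, against 0.905 and 0.786 and, at 28 dpn, 0.588 to 0.725. The median SD of a probe set (log2) was 0.586 at 1 dpn and 0.420 at 28 dpn, against 0.303 at 94 dpc and 0.397 at 188 dpn. The fit shares its estimate of spread over all stages, so SEs and p-values can be too low for comparisons with the newborn animals. Fitted on the 12 arrays alone, 3347 probe sets were called, against 5357. As the newborn arrays differed, changes are also given on replicates 1 and 6 of 1 dpn against all 6 older animals, hereafter the even arrays. On them 16.6% of probe sets were called, and 12.1% of named genes were higher and 9.95% lower. The 4 low arrays alone against the older animals gave 6496 calls, against 5357 with all arrays, and the difference between these sets was not tested. With 2 newborn arrays, either can set an even-array value: of 118 called probe sets named here, 31 had a log2 value that moved by over 1.5 times when 1 of them was left out. The largest such losses were those of GHR (log2 1.70 to 0.15 without replicate 6), MYBPC1 (1.17 to 0.30 without replicate 6) and PDPN (-2.09 to -0.59 without replicate 1).

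**Figure D1:**
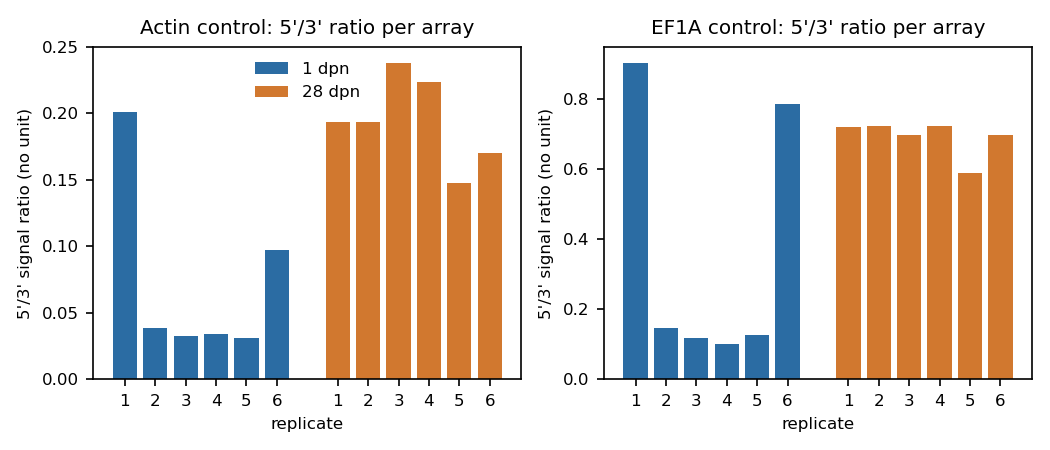
Ratio of 5′ to 3′ control signal (y axis, no unit) on each of the 12 arrays (x axis) for beta-actin and the elongation factor EF1A. Replicates 2 to 5 of 1 dpn lie at 0.0386 or less for actin and at 0.146 or less for EF1A, below every other array.

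Of the 15 largest rises called on both sets of arrays without overlap, several were genes of glycogen, creatine and glycolysis. Glycogen phosphorylase PYGM, which releases glucose units from muscle glycogen, ranged from 402 to 690.1 (median 599) at 1 dpn and from 8563 to 12355 (median 10357) at 28 dpn by the probe set with the largest change. The groups lay far apart, a rise of 18.1-fold (log2 4.18 ± 0.16 SE, adjusted p = 8.1e-14). Its other 3 probe sets were also called higher, by log2 0.81 to 3.96, and the brightest of the 4 rose least and lost its call without replicate 6 of 1 dpn (adjusted p = 0.0536). That brightest probe set read 15425 and 20538 on the even newborn arrays and 46735 to 51451 on the low ones. On the even arrays it rose by log2 1.77 and the probe set with the largest change by 4.54, both called. GAMT, which makes creatine in its final step, ranged from 139.6 to 399 (median 304) at 1 dpn and from 2434 to 6584 (median 4979) at 28 dpn. The lowest older animal, replicate 3, lay well above the highest newborn one (log2 4.04 ± 0.23 SE, adjusted p = 1.1e-10; even arrays 4.33).

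MSS51, a mitochondrial protein of muscle, ranged from 149.5 to 260.3 (median 187) at 1 dpn and from 1399 to 4836 (median 2280.0) at 28 dpn, without overlap (log2 3.64 ± 0.27 SE, adjusted p = 5.9e-09; even arrays 3.35). GPD1, the cytosolic glycerol phosphate dehydrogenase that links glycolysis to lipid and redox shuttles, ranged from 154 to 3403 (median 2655) at 1 dpn and from 9560.4 to 27939 (median 18935) at 28 dpn. Its newborn values were uneven: replicate 1 read 154 and the other 5 animals 1642 to 3403 (log2 3.46 ± 0.49 SE, adjusted p = 3.1e-05; even arrays 5.10). Carbonic anhydrase CA3, an abundant enzyme of slow fibres, rose 8.48-fold (log2 3.08 ± 0.28 SE, adjusted p = 1.9e-07), the mitochondrial aldehyde dehydrogenase ALDH2 8.05-fold (log2 3.01 ± 0.25 SE, adjusted p = 4.4e-08) and BPGM, which makes bisphosphoglycerate, 7.82-fold (log2 2.97 ± 0.23 SE, adjusted p = 1.2e-08). STBD1, which anchors glycogen to membranes, ranged from 699.9 to 1939.7 (median 1038) at 1 dpn and from 5935 to 10003 (median 7381) at 28 dpn, a rise of 6.89-fold. SLC16A3, which exports lactate, ranged from 189.8 to 1117 (median 574) at 1 dpn and from 2571 to 6049.5 (median 3093) at 28 dpn, a rise of 6.79-fold. None of the values of these 5 genes overlapped between the ages, and on the even arrays they rose by log2 3.25, 3.73, 3.03, 2.93 and 2.93.

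STRADB, a pseudokinase that activates the kinase LKB1, rose 12.7-fold and PLBD1, a phospholipase-like lysosomal protein, 11.1-fold, by the probe sets with the largest change, and each was higher by 3 of its 4 probe sets. The brightest probe set of STRADB went from a mean of 4722 to 10041, at log2 1.19 (even arrays 2.16), and that of PLBD1 from 733 to 3086, at log2 2.07 (even arrays 2.53). By the probe sets with the largest change both rises were smaller on the even arrays (log2 3.67 with all arrays and 2.80 on the even ones; 3.47 and 2.88). SNTB1, a syntrophin of the dystrophin complex, stood below or near background at 1 dpn (mean signals 68.9 to 911; log2 3.58 ± 0.34 SE, adjusted p = 2.9e-07), and its brightest probe set gave a change of log2 1.99. The xenobiotic-metabolizing P450 CYP3A29 was below background, a signal of 69.7, in all 6 newborn animals (3.40 to 20.5) and read 68.3, 55.5, 173, 150.1, 531 and 511 in the older ones. This was a rise of at least 2.27-fold (log2 3.04 ± 0.43 SE, adjusted p = 2.7e-05). Its highest values fell in replicates 5 and 6 of 28 dpn, and those of albumin in replicates 1 and 2. CYP3A29 is itself on the list of hepatocyte markers, and the source of its transcript was not tested. The complement regulator C4BPA ranged from 207 to 659 (median 310.4) at 1 dpn and from 1596 to 5806 (median 1929.6) at 28 dpn, 7.38-fold higher (log2 2.88 ± 0.42 SE, adjusted p = 3.6e-05). LOC100621559, a locus with no role given here, completes the 15 largest rises, with a rise of at least 2.27-fold (log2 2.87 ± 0.33 SE, adjusted p = 2.2e-06).

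Among the falls the imprinted gene PEG10, a retrotransposon-derived gene of fetal growth, ranged from 2609 to 4564 (median 3074) at 1 dpn and from 264 to 498 (median 385) at 28 dpn. The groups did not overlap (8.27-fold lower; log2 -3.05 ± 0.17 SE, adjusted p = 1.0e-10; even arrays -3.06), although its other 2 probe sets were dim and not called. PLAGL1, an imprinted zinc-finger regulator, ranged from 796 to 3206 (median 1367) at 1 dpn and from 204 to 553 (median 253) at 28 dpn (5.24-fold lower; log2 -2.39 ± 0.29 SE, adjusted p = 4.2e-06). CDKN3, a phosphatase that acts on cyclin-dependent kinases, ranged from 1376 to 3085 (median 1898) at 1 dpn and from 167 to 284 (median 236) at 28 dpn (7.94-fold lower; log2 -2.99 ± 0.18 SE, adjusted p = 2.8e-10; even arrays -3.37). SLC25A33, a mitochondrial carrier of pyrimidine nucleotides, fell 5.09-fold with all arrays (log2 -2.35 ± 0.42 SE, adjusted p = 3.1e-04) and by more on the even arrays (log2 -3.63). Replicate 1 of 1 dpn, an even array, read 10489 against 990.4 to 2610 in the other newborn animals, and without it the even-array value was log2 -2.63. The vesicle-transport myosin MYO5B fell 8.80-fold (log2 -3.14 ± 0.48 SE, adjusted p = 6.5e-05; even arrays -2.69).

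HSPB7, a small heat shock protein of heart and muscle, ranged from 5664 to 10673 (median 8043) at 1 dpn and from 882 to 3617 (median 1553) at 28 dpn (4.91-fold lower; log2 -2.30 ± 0.34 SE, adjusted p = 4.8e-05). Thioredoxin TXN, a protein disulphide reductant, ranged from 689 to 2415 (median 1539) at 1 dpn and from 212 to 359.6 (median 273) at 28 dpn by the probe set with the larger change (4.87-fold lower; log2 -2.28 ± 0.24 SE, adjusted p = 8.2e-07). Its brighter probe set went from a mean of 13785 to 6957, at log2 -0.96 (even arrays -1.16). The transcription factors ETS2 and FOSL2, the latter a partner of Jun proteins, fell 4.89-fold (log2 -2.29; even arrays -2.58) and 4.69-fold (log2 -2.23; even arrays -2.15), and HSPB11, a part of the transport machinery of cilia, fell 4.21-fold (log2 -2.07; even arrays -2.38). The tissue kallikrein KLK1 was below background in all 6 older animals and fell at least 3.20-fold (log2 -2.84 ± 0.48 SE, adjusted p = 1.7e-04). The trafficking genes TRAPPC12 (mean signals 329 to 53.2) and RER1 (245 to 41.1) ended below background at 28 dpn, although the brightest probe set of RER1 went from 6117 to 3115 (log2 -0.93), and EFCAB11 fell 4.37-fold. A probe set annotated to the peptidase NLN ranged from 27865 to 56987 (median 49331) at 1 dpn and from 7238 to 10882 (median 8759.7) at 28 dpn (4.99-fold lower; log2 -2.32 ± 0.17 SE, adjusted p = 6.4e-09). A second NLN probe set gave means of 44743 and 9535, while the other 3 were dim, at means of 165 or less at 1 dpn. None of these 15 genes overlapped between the ages, as the rule that chose them required.

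**Figure D2:**
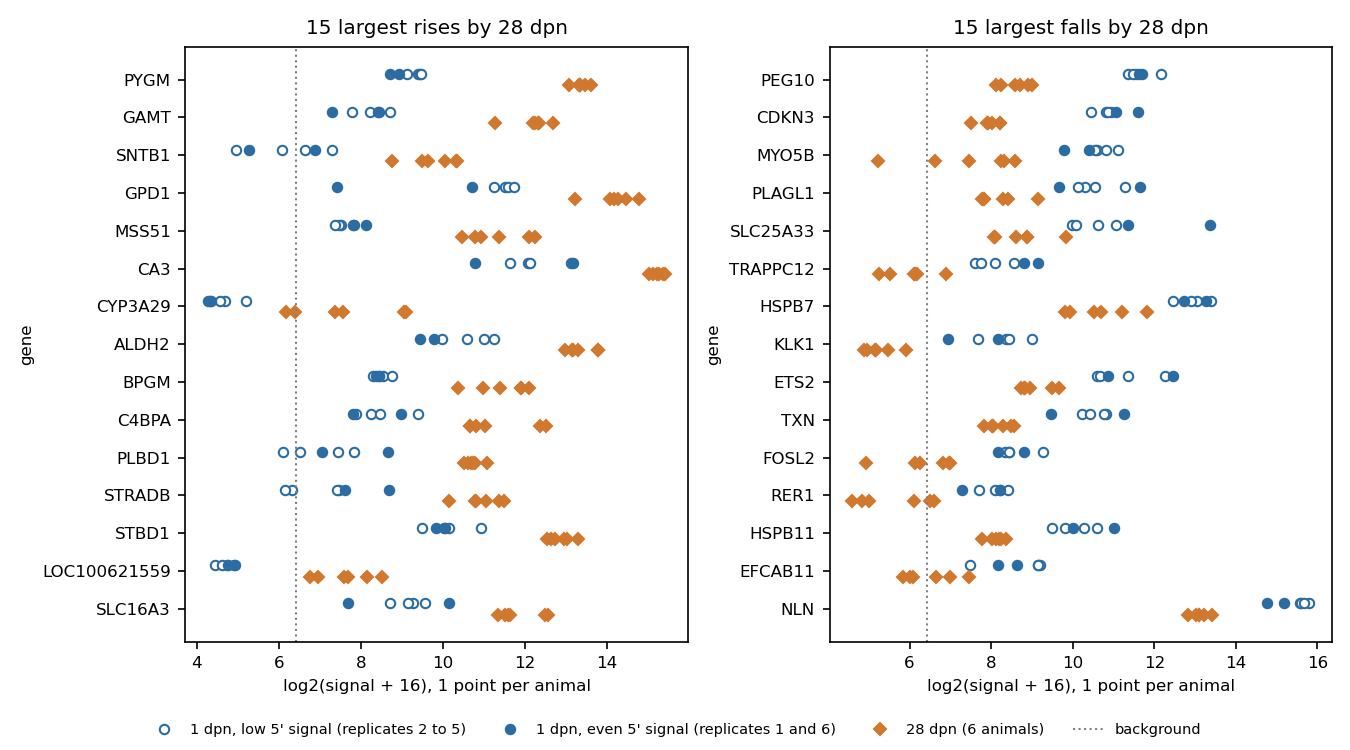
Signal of each animal as log2(signal + 16) (x axis) for the 15 largest rises and 15 largest falls (y axis, 1 gene a line), with open circles for 1 dpn replicates 2 to 5, filled circles for 1 dpn replicates 1 and 6, diamonds for 28 dpn and a dotted line at background. The circles and diamonds of a gene do not overlap, and the filled circles lie on the same side as the open ones, both by the rule that chose these genes.

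**Figure D3:**
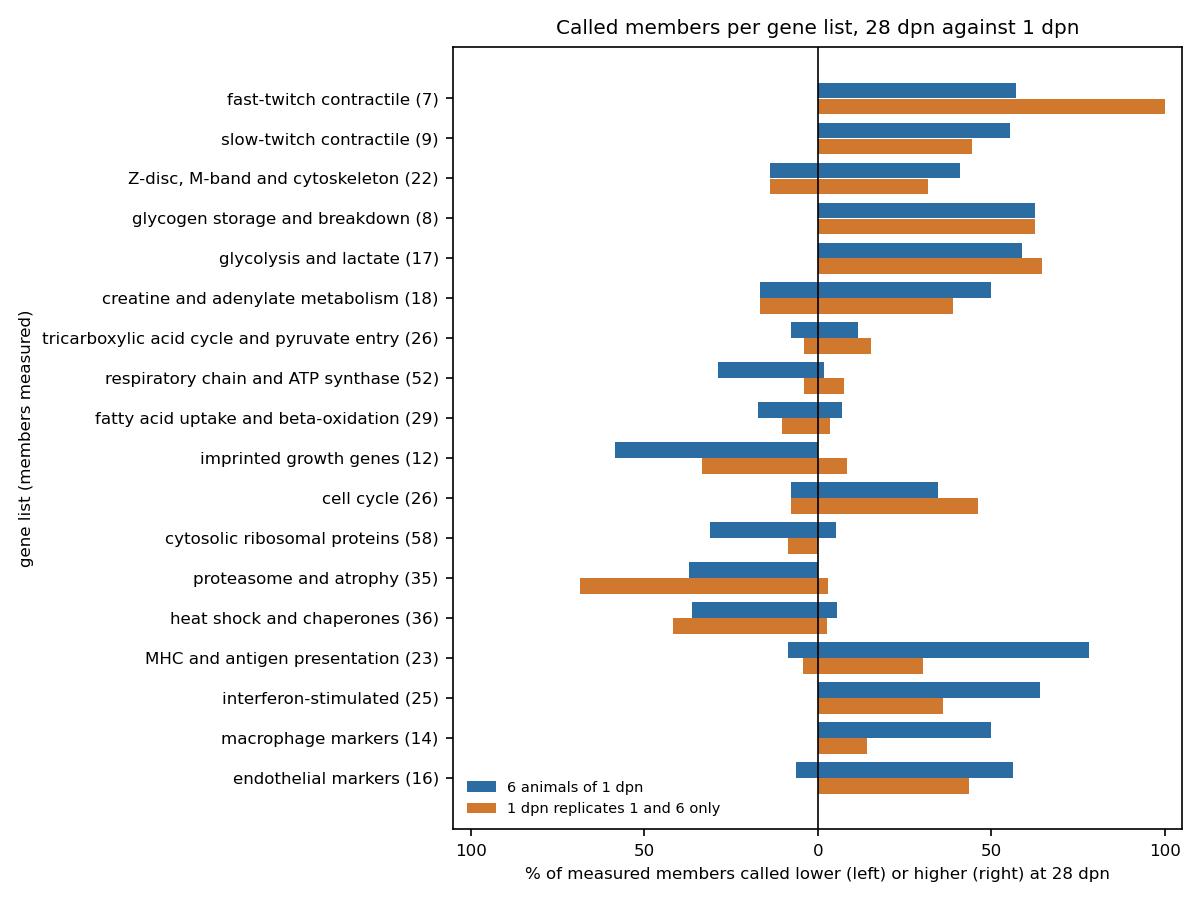
Share of the measured members of 18 gene groups called higher (right) or lower (left) at 28 dpn, in percent (x axis), for all 6 newborn arrays and for replicates 1 and 6 alone. Glycolysis, interferon and antigen-presentation genes lie to the right with all arrays, proteasome and heat shock genes to the left on both sets, and the falls of respiratory chain genes are fewer on replicates 1 and 6.

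Contractile genes of both fibre types rose or did not pass the test. Of 7 measured fast-twitch genes 4 were higher and 0 lower by limma (5 and 0 at an unadjusted p under 0.05; median log2 0.56), and on the even arrays all 7 were higher (median 0.76). After quantile normalization or centring 3 were higher. The fast myosin heavy chain MYH2 ranged from 4737 to 24028 (median 10142) at 1 dpn and from 40149.5 to 92459.8 (median 79701) at 28 dpn. Replicate 4 was the lowest of the older animals and still lay above every newborn value (6.75-fold higher; log2 2.76 ± 0.28 SE, adjusted p = 4.7e-07). The fast troponin T TNNT3, which ties the troponin complex to tropomyosin, ranged from 27072 to 40271 (median 32656) at 1 dpn and from 67787 to 80632 (median 74465) at 28 dpn (2.26-fold; log2 1.18 ± 0.14 SE, adjusted p = 3.6e-06). Tropomyosin TPM1 and the inhibitory troponin TNNI2 rose by log2 0.86 and 0.56 (even arrays 0.84 and 0.74), and no value of either overlapped. The myosin light chains MYL1 and MYLPF and the calcium-binding troponin TNNC2 gave log2 0.38, 0.25 and 0.24 with all arrays without a call, and were called on the even arrays, at log2 0.76, 0.68 and 0.68. All 7 fast-twitch genes were also called higher with the GAPDH ratio as covariate.

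Of 9 slow-twitch genes 5 were higher and 0 lower by limma (8 and 0 at an unadjusted p under 0.05; median log2 0.81), against 4 higher on the even arrays. Slow troponin T TNNT1 ranged from 20549.5 to 34108 (median 26749) at 1 dpn and from 35535 to 70913 (median 56401) at 28 dpn, without overlap (2.01-fold; log2 1.01 ± 0.22 SE, adjusted p = 0.00162; even arrays 1.05). The slow myosin-binding protein MYBPC1 ranged from 6033 to 28204 (median 7617) at 1 dpn and from 25473 to 55579 (median 30796) at 28 dpn (3.50-fold; log2 1.81 ± 0.30 SE, adjusted p = 1.5e-04; even arrays 1.17), with overlap between the ages. TNNC1 and TNNI1, the slow calcium-binding and inhibitory troponins, rose by log2 1.20 and 1.16 but were not called on the even arrays (log2 0.93 and 0.73). The slow myosin heavy chain MYH7 ranged from 12284 to 52506 (median 39814) at 1 dpn and from 38584 to 74083 (median 61541) at 28 dpn and was not called (log2 0.75 ± 0.29 SE, adjusted p = 0.0686), although on the even arrays it was (log2 1.48, adjusted p = 0.0103). Its lowest newborn value by far was that of replicate 6, an even array. The call of MYH7 was made when any 1 of replicate 4 of 1 dpn or replicate 6 of 28 dpn was left out (adjusted p 0.0440 to 0.0457, limma).

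Of 6 embryonic and neonatal genes 1 was higher, near the share of all genes, the cardiac and fetal troponin T TNNT2. It ranged from 11.9 to 182 (median 67.4) at 1 dpn and from 74.0 to 502 (median 200.2) at 28 dpn, from near background. That call had an adjusted p of 0.0452 and was not made on the even arrays (log2 0.69). The embryonic myosin light chain MYL4 (log2 0.49) and the cardiac actin ACTC1 (log2 -0.95) were not called, and the heavy chains MYH3, MYH8, MYH1 and MYH4 had no named probe set here. Of 9 calcium-handling genes 3 were higher and 0 lower by limma (3 and 1 at an unadjusted p under 0.05). The calcium release channel RYR1 ranged from 3898 to 7988 (median 5770.4) at 1 dpn and from 15748 to 22212 (median 20205) at 28 dpn, without overlap (3.40-fold; log2 1.77 ± 0.17 SE, adjusted p = 3.4e-07; even arrays 1.79). Sarcolipin SLN, an inhibitor of the calcium pump, rose 1.52-fold (log2 0.60; even arrays 0.81). Phospholamban PLN, the pump inhibitor of slow fibres, rose by log2 1.54 with all arrays but missed the call on the even arrays (log2 1.21), and the fast pump ATP2A1 itself stood at log2 -0.08. Of 14 neuromuscular junction genes listed 1 had a named probe set, the acetylcholine receptor subunit CHRNA1, which was not called (log2 0.70). The call of TNNT2 ended when any 1 of replicates 2, 3 and 5 of 1 dpn or replicates 1, 2, 3, 4 and 5 of 28 dpn was left out (adjusted p 0.0550 to 0.112, limma).

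Genes of the Z-disc, the M-band and the cytoskeleton moved in both directions, 9 of 22 higher and 3 lower, and 7 and 3 on the even arrays. MYOM2, which cross-links thick filaments at the M-band, ranged from 3146 to 15166 (median 8551) at 1 dpn and from 32602 to 41128 (median 38367) at 28 dpn, without overlap (4.57-fold; log2 2.19 ± 0.25 SE, adjusted p = 2.1e-06; even arrays 2.92). The giant proteins titin TTN and nebulin NEB, which span the thick and thin filaments, rose by log2 0.98 and 1.05, and by 1.02 and 1.44 on the even arrays. ANKRD1, a stress-responsive titin partner, ranged from 1417 to 14182 (median 4039) at 1 dpn and from 139 to 2100.0 (median 753) at 28 dpn, and the groups overlapped (6.84-fold lower; log2 -2.77 ± 0.60 SE, adjusted p = 0.00183; even arrays -4.32). XIRP1 and CRYAB, which bind actin at injured sarcomeres and act as a chaperone, were the other falls, at log2 -1.28 and -0.87 (even arrays -2.44 and -1.22). For CAPN3 and SYNM replicate 1 of 1 dpn, an even array, lay far above the other newborn animals, and both rises were larger without it. The muscle protease CAPN3 read 8351 in that animal and 282 to 949 in the other 5, against 3317 to 8182 (median 5378) at 28 dpn (log2 2.86 ± 0.53 SE, adjusted p = 4.6e-04; log2 3.56 without replicate 1; even arrays 0.91, not called). A second CAPN3 probe set went the other way, from a mean of 1559 to 1112, and was not called (log2 -0.27; even arrays -0.71). The filament protein SYNM read 6848 in replicate 1 of 1 dpn and 349.8 to 975 in the other newborn animals, against 4174 to 8676 (median 4609) at 28 dpn (log2 2.52 ± 0.47 SE, adjusted p = 4.6e-04; log2 3.10 without replicate 1; even arrays 0.96, not called).

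Most measured glycogen and glycolytic genes were higher at 28 dpn. Of 8 measured glycogen genes 5 were higher and 0 lower by limma (6 and 0 at an unadjusted p under 0.05), with a median of log2 0.88, and 5 were higher on the even arrays (median 1.59). Of 17 glycolysis and lactate genes 10 were higher and 0 lower (10 and 1), with a median of log2 1.22, and on the even arrays 11 were higher (median 1.39). After centring each array 10 were higher and 1 lower. Phosphoglucomutase PGM1, which passes glycogen-derived glucose phosphate into glycolysis, ranged from 8122 to 18379 (median 16472) at 1 dpn and from 55779 to 65871 (median 61168) at 28 dpn (4.50-fold; log2 2.17 ± 0.20 SE, adjusted p = 1.6e-07). The phosphorylase kinase subunit PHKB ranged from 1336 to 3242 (median 2535) at 1 dpn and from 7424 to 10333 (median 9325) at 28 dpn (3.78-fold; log2 1.92 ± 0.20 SE, adjusted p = 9.0e-07), and the glycogen primer GYG1 rose 1.92-fold (log2 0.94 ± 0.17 SE, adjusted p = 2.8e-04). None of these 3 genes overlapped between the ages, and their even-array changes were log2 2.88, 2.17 and 1.41.

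Glucose phosphate isomerase GPI ranged from 6105 to 14407 (median 11466) at 1 dpn and from 29472 to 50133 (median 42178) at 28 dpn, without overlap (3.96-fold; log2 1.99 ± 0.20 SE, adjusted p = 4.1e-07; even arrays 2.60). FBP2, the muscle fructose bisphosphatase that opposes phosphofructokinase, ranged from 395 to 14819.8 (median 8647) at 1 dpn and from 18567 to 31849 (median 24953) at 28 dpn, and its lowest newborn value, 395, was that of replicate 1 (4.27-fold; log2 2.09 ± 0.55 SE, adjusted p = 0.00795; log2 1.33 without that animal; even arrays 3.75). Other called rises, named after their values were seen, were those of phosphofructokinase PFKM (log2 1.82), triosephosphate isomerase TPI1 (1.68), lactate dehydrogenase LDHA (1.46), phosphoglycerate mutase PGAM2 (1.24), phosphoglycerate kinase PGK1 (1.22) and enolase ENO3 (0.68). Each was larger on the even arrays, at log2 2.58, 1.77, 2.66, 1.39, 1.81 and 1.07. GAPDH was not called by its brightest probe set (means 63672 and 75352, log2 0.28), but was called on the even arrays (log2 0.73), and a dimmer probe set rose from 4047 to 22920 (log2 2.68). The heart-type dehydrogenase LDHB (log2 -0.63), pyruvate kinase PKM (0.01) and the insulin-regulated glucose transporter SLC2A4 (-0.37) were not called.

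In creatine and adenylate metabolism 9 of 18 genes were higher and 3 lower (7 and 3 on the even arrays; 5 and 5 after centring). ADSSL1 and AMPD1, which turn over adenine nucleotides in the purine nucleotide cycle of muscle, ranged, for ADSSL1, from 2064 to 6244 (median 5672) at 1 dpn and from 16098 to 33371 (median 25628) at 28 dpn (5.54-fold; log2 2.47 ± 0.26 SE, adjusted p = 8.4e-07) and, for AMPD1, from 2279.7 to 17722 (median 9675) and from 21873 to 36305 (median 31314) (3.60-fold; log2 1.85 ± 0.32 SE, adjusted p = 2.5e-04). Neither gene overlapped, and both rose by more on the even arrays (log2 3.32 and 2.84). Subunits of AMP-activated protein kinase, the cellular energy sensor, went different ways. PRKAB2 rose by log2 1.24 and, named after their values were seen, PRKAA2 and PRKAG3 by 0.95 and 0.81, while PRKAB1 and PRKAG1 were lower, at log2 -0.47 and -0.75. On the even arrays PRKAB2 and PRKAB1 were not called and PRKAA2, PRKAG3 and PRKAG1 were. The cytosolic muscle creatine kinase CKM gave log2 0.48 and the mitochondrial CKMT2 -0.66, the latter -0.03 and not called on the even arrays.

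Calls among respiratory chain genes differed with the newborn arrays used. Of 52 subunits of the respiratory chain and ATP synthase 15 were lower and 1 higher with all arrays (median log2 -0.32). The even arrays gave 2 lower and 4 higher (median 0.037), and the low arrays alone 27 and 3 (median -0.49). Centring gave 27 lower. COX7A2, a subunit of cytochrome oxidase, ranged from 15990.0 to 36862 (median 29877) at 1 dpn and from 5306 to 10484 (median 8116) at 28 dpn, without overlap, and fell on both sets of arrays (3.63-fold lower; log2 -1.86 ± 0.21 SE, adjusted p = 2.4e-06; even arrays -1.46). The ATP synthase subunit ATP5I ranged from 4874 to 23451 (median 17939) at 1 dpn and from 749 to 6015 (median 2311) at 28 dpn (5.97-fold lower; log2 -2.58 ± 0.63 SE, adjusted p = 0.00462), a fall that lost its call on the even arrays (log2 -1.28). The complex I subunits NDUFC2 and NDUFC1 were lower with all arrays, at log2 -1.10 and -1.05, but were not called on the even arrays, at log2 -0.26 and 0.11. Replicate 1 of 1 dpn had the lowest newborn NDUFC2 signal, 7145, below all 6 values at 28 dpn, 8009 to 12299. The even-array rises were those of NDUFA5, COX7A1, COX8H and ATP5A1 (log2 0.69, 0.78, 1.21 and 0.72), named after their values were seen.

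**Figure D4:**
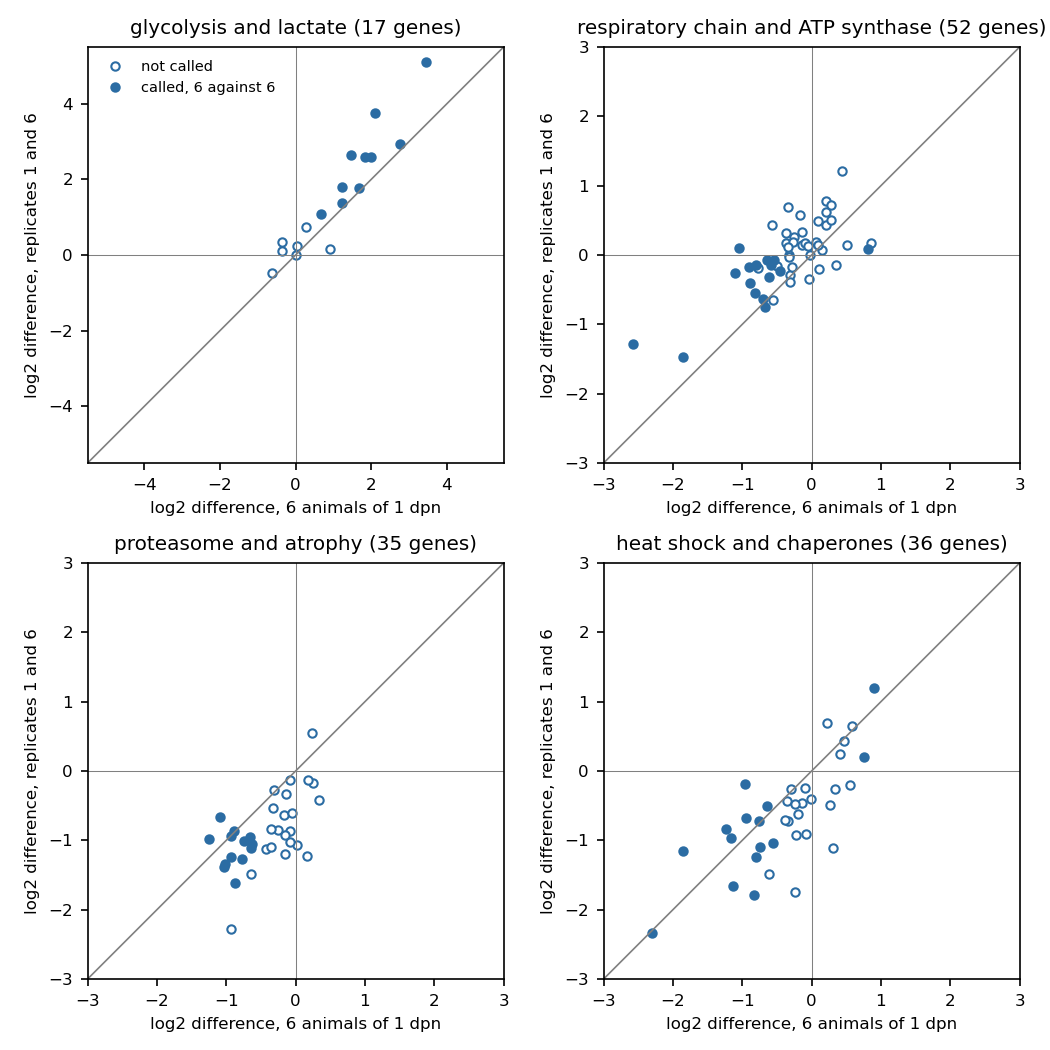
Change from 1 dpn to 28 dpn of each measured member of 4 gene groups, as log2 difference on all arrays (x axis) and with only replicates 1 and 6 of 1 dpn (y axis), filled where called. Respiratory chain members lie mostly left of 0 on the x axis and around 0 on the y axis, proteasome and heat shock members lie mostly lower on the y axis than on the x axis, and glycolysis members higher.

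In the tricarboxylic acid cycle and pyruvate entry 3 of 26 genes were higher and 2 lower (4 and 1 on the even arrays), shares under those of all genes with all arrays. SUCLA2, a subunit of succinyl-CoA synthetase, ranged from 1592 to 6252 (median 2359) at 1 dpn and from 5950.0 to 7575 (median 6709) at 28 dpn (2.42-fold; log2 1.28 ± 0.22 SE, adjusted p = 2.6e-04; even arrays 1.81). SDHB, the iron-sulphur subunit of succinate dehydrogenase, rose by log2 0.75 and the isocitrate dehydrogenase subunit IDH3B fell by 1.37 on the log2 scale, and both were called on the even arrays (log2 0.65 and -1.23). Malate dehydrogenase MDH1 fell with all arrays (log2 -0.69) and stood at log2 -0.052 on the even arrays. PDK4, the kinase that restrains pyruvate oxidation, ranged from 3486 to 28394 (median 7595) at 1 dpn and from 3012 to 21313 (median 6049.7) at 28 dpn and was not called (log2 -0.28 ± 0.48 SE, adjusted p = 0.739). Of 29 genes of fatty acid uptake and beta-oxidation 2 were higher and 5 lower (1 and 3 on the even arrays), the former under and the latter not far from the shares of all genes. The carnitine transferase CPT1B, the entry step for long-chain fatty acids, ranged from 4772 to 8546 (median 7612) at 1 dpn and from 1832 to 4384 (median 2872) at 28 dpn, without overlap (2.48-fold lower; log2 -1.31 ± 0.25 SE, adjusted p = 5.8e-04; even arrays -1.18). The very-long-chain dehydrogenase ACADVL fell 2.69-fold (log2 -1.43 ± 0.26 SE, adjusted p = 4.5e-04; even arrays -1.25), also without overlap. The fatty acid carrier FABP3 changed by log2 -1.02 with all arrays and missed the call on the even arrays (log2 -0.53), and DECR1, which handles unsaturated chains, rose by log2 0.93 and was likewise not called there (0.89). The call of MDH1 ended when any 1 of replicates 2, 3, 4 and 5 of 1 dpn or replicates 1, 2, 3 and 6 of 28 dpn was left out (adjusted p 0.0519 to 0.0755, limma). FABP3 likewise lost its call without any 1 of replicate 4 of 1 dpn or replicates 5 and 6 of 28 dpn (adjusted p 0.0509 to 0.0657).

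Lipid synthesis and storage had 2 of 22 genes higher and 2 lower, both under the shares of all genes. The desaturase FADS2 was below background in all newborn animals and 27.1 to 145 at 28 dpn, at least 1.08-fold higher (log2 1.55 ± 0.32 SE, adjusted p = 0.00110). The lipase MGLL, which finishes the breakdown of triglyceride, rose 1.82-fold without overlap (log2 0.86 ± 0.20 SE, adjusted p = 0.00288; even arrays 1.48). Fatty acid synthase FASN (log2 -0.79 ± 0.28 SE, adjusted p = 0.0457) and the droplet coat protein PLIN2 (log2 -0.76 ± 0.25 SE, adjusted p = 0.0325) were lower with all arrays and not called on the even ones. The desaturase SCD was not called (log2 -0.51 ± 0.36 SE, adjusted p = 0.347). In branched-chain and other amino acid breakdown 5 of 21 were higher and 2 lower, the former over and the latter a little under the shares of all genes. Mitochondrial BCAT2, which takes the amino group from branched-chain amino acids, ranged from 41.4 to 363 (median 131) at 1 dpn and from 835 to 1357 (median 954) at 28 dpn (7.78-fold; log2 2.96 ± 0.33 SE, adjusted p = 1.9e-06; even arrays 1.98). Its cytosolic counterpart BCAT1 ranged from 112 to 639.7 (median 358) at 1 dpn and from 23.4 to 119 (median 90.9) at 28 dpn (3.76-fold lower; log2 -1.91 ± 0.33 SE, adjusted p = 2.1e-04), but lacked a call among the even arrays (log2 -1.32, adjusted p = 0.0513). HIBCH of valine breakdown rose 3.00-fold (log2 1.58 ± 0.23 SE, adjusted p = 3.6e-05), and PHGDH, the entry to serine synthesis, was lower (log2 -1.44 ± 0.50 SE, adjusted p = 0.0404) but not called on the even arrays. The call of FASN ended when any 1 of replicates 2, 3, 4 and 6 of 1 dpn or replicates 3, 5 and 6 of 28 dpn was left out (adjusted p 0.0687 to 0.120, limma). PLIN2 likewise lost its call without any 1 of replicates 2, 4 and 6 of 1 dpn or replicates 1, 2, 5 and 6 of 28 dpn (adjusted p 0.0580 to 0.0845). PHGDH likewise lost its call without any 1 of replicates 2, 3, 5 and 6 of 1 dpn or replicates 2, 3 and 5 of 28 dpn (adjusted p 0.0556 to 0.108).

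Among 14 genes of mitochondrial biogenesis and nuclear receptors 3 were higher and 2 lower, MSS51 among the former. Both counts were not far from the shares of all genes. The retinoid receptor RXRG rose from below or near background (mean signals 63.0 to 297; log2 2.09 ± 0.33 SE, adjusted p = 8.1e-05; even arrays 2.61), without overlap. The coactivator PPARGC1A ranged from 119 to 503 (median 345) at 1 dpn and from 497 to 733 (median 571) at 28 dpn, and the groups overlapped (1.82-fold; log2 0.86 ± 0.27 SE, adjusted p = 0.0226; even arrays 1.34). Its relative PPRC1 was lower, at log2 -0.69 (even arrays -1.21). Of 23 nutrient transporters 3 were higher and 2 lower (3 and 3 on the even arrays), with all arrays a little under the shares of all genes. The rises were those of the glucose transporter SLC2A12 (2.68-fold; log2 1.42 ± 0.24 SE, adjusted p = 1.9e-04) and the fructose transporter SLC2A5 (mean signals 46.3 to 122; log2 1.38 ± 0.39 SE, adjusted p = 0.0122) beside SLC16A3. On the even arrays SLC2A12 kept its call (log2 1.84) and SLC2A5 did not (log2 1.20). The falls were those of the amino acid transporter SLC7A1 (log2 -1.23) and SLC25A33. The call of PPRC1 ended when any 1 of replicates 1, 4 and 6 of 1 dpn or replicates 1, 2, 3 and 4 of 28 dpn was left out (adjusted p 0.0625 to 0.0948, limma).

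In the growth hormone, insulin and mTOR pathways 4 of 20 genes were higher and 1 lower (3 and 1 on the even arrays). With all arrays the former was not far from and the latter under the shares of all genes. Insulin-like growth factor IGF1, the growth factor induced by growth hormone, ranged from 14.1 to 109 (median 32.0) at 1 dpn and from 168 to 344 (median 231) at 28 dpn, without overlap (log2 2.18 ± 0.27 SE, adjusted p = 5.9e-06; even arrays 2.00). The growth hormone receptor GHR ranged from 15.6 to 429 (median 60.7) at 1 dpn and from 362 to 782 (median 468) at 28 dpn and rose 5.41-fold (log2 2.44 ± 0.45 SE, adjusted p = 4.7e-04; even arrays 1.70), with overlap. TSC2, an mTOR inhibitor, rose with all arrays (log2 1.50 ± 0.42 SE, adjusted p = 0.0115) and stood at log2 0.093 on the even ones. The binding protein IGFBP1 was lower (mean signals 124 to 35.5; log2 -1.55 ± 0.52 SE, adjusted p = 0.0355) and not called on the even arrays, and IGFBP2 (log2 1.26) likewise (log2 0.41). The call of IGFBP1 ended when any 1 of replicates 2, 3 and 5 of 1 dpn or replicates 1, 3, 4 and 6 of 28 dpn was left out (adjusted p 0.0568 to 0.0860, limma).

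Myostatin MSTN, which limits muscle growth, was below background in all newborn animals (4.10 to 62.4) and 70.0 to 203 (median 144) at 28 dpn, at least 1.68-fold higher (log2 2.02 ± 0.29 SE, adjusted p = 2.8e-05; even arrays 2.75). Of 15 myogenic regulators and myostatin pathway genes 4 were higher and 1 lower (1 and 3 after centring). MEF2D, a transcription factor of muscle genes, ranged from 3301 to 8353 (median 5891) at 1 dpn and from 2151 to 3115 (median 2594) at 28 dpn, without overlap (2.17-fold lower; log2 -1.12 ± 0.19 SE, adjusted p = 2.3e-04; even arrays -0.84). Its relative MEF2A rose by log2 0.75 (even arrays 1.58). The myogenic factor MYF6 rose with all arrays (log2 0.99 ± 0.32 SE, adjusted p = 0.0299) but was at log2 -0.098 on the even ones, and the activin receptor ACVR2B, through which myostatin signals, was likewise called with all arrays alone (log2 0.93 and 0.22). Myogenin and PAX7 had no named probe set here. Of 7 satellite cell markers 0 were higher and 0 lower by limma (0 and 1 at an unadjusted p under 0.05). The call of MYF6 ended when any 1 of replicates 3, 4 and 5 of 1 dpn or replicates 3 and 4 of 28 dpn was left out (adjusted p 0.0535 to 0.0822, limma). ACVR2B likewise lost its call without any 1 of replicates 2, 4 and 5 of 1 dpn or replicates 1 and 6 of 28 dpn (adjusted p 0.0612 to 0.0853).

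Imprinted growth genes were lower or not called. Of 12 measured 7 were lower and 0 higher by limma (7 and 0 at an unadjusted p under 0.05; median log2 -0.74), 7 lower after quantile normalization, and 4 and 1 on the even arrays. Beside PEG10 and PLAGL1 these were the G protein subunit GNAS, which ended below background (mean signals 171 to 41.1; log2 -1.89 ± 0.33 SE, adjusted p = 2.3e-04), and PHLDA2, a restrainer of placental growth. PHLDA2 ranged from 293 to 1141 (median 503) at 1 dpn and from 84.7 to 254 (median 196) at 28 dpn (log2 -1.45 ± 0.36 SE, adjusted p = 0.00488). It missed the threshold on the even arrays (log2 -1.62, adjusted p = 0.0518). NDN, SNRPN and COPG2 had no call there either (log2 -0.85, -0.83 and -0.65 with all arrays). The noncoding RNA MEG3 was not called with all arrays (log2 0.93) and was lower on the even arrays (log2 -1.18). The fourth even-array fall was that of MEG3 beside PEG10, PLAGL1 and GNAS, and the rise was that of DIRAS3 (log2 1.19).

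Of 22 secreted growth factors and myokines 4 were higher and 4 lower (5 and 4 on the even arrays). With all arrays both counts were not far from the shares of all genes. Midkine MDK, a heparin-binding growth factor of developing tissue, ranged from 16.5 to 169 (median 115) at 1 dpn and from 195 to 703 (median 629.5) at 28 dpn, without overlap (5.49-fold; log2 2.46 ± 0.39 SE, adjusted p = 8.8e-05; even arrays 1.85). BMP4 rose 1.96-fold without overlap (log2 0.97 ± 0.19 SE, adjusted p = 6.3e-04; even arrays 1.20), and the vessel growth factor VEGFA by log2 0.94 (even arrays 1.48). Angiotensinogen AGT ranged from 2289.8 to 10287 (median 5110.1) at 1 dpn and from 883 to 2567 (median 1617) at 28 dpn (2.95-fold lower; log2 -1.56 ± 0.40 SE, adjusted p = 0.00719; even arrays -1.86). The matricellular protein CYR61 ranged from 1202 to 6889 (median 1438) at 1 dpn and from 351 to 1868 (median 589.8) at 28 dpn (2.78-fold lower; log2 -1.48 ± 0.38 SE, adjusted p = 0.00738; even arrays -2.13), with overlap in both. Its highest newborn value was that of replicate 1, 6889.

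Of 19 glucocorticoid-related genes 1 was higher and 3 were lower, the former under and the latter near the shares of all genes (1 and 3 on the even arrays; 1 and 1 after quantile normalization and 1 and 7 after centring). The receptor NR3C1 ranged from 12.1 to 256 (median 54.9) at 1 dpn and from 443 to 688 (median 511) at 28 dpn, without overlap (7.46-fold higher; log2 2.90 ± 0.38 SE, adjusted p = 1.1e-05; even arrays 1.71). None of its other 3 probe sets was called higher. The cell cycle inhibitor CDKN1A ranged from 9512 to 18044 (median 12284) at 1 dpn and from 3133 to 5601 (median 3921) at 28 dpn, without overlap (3.24-fold lower; log2 -1.69 ± 0.22 SE, adjusted p = 9.6e-06; even arrays -1.86). CEBPD and KLF9, transcription factors that glucocorticoids induce, were lower with all arrays (log2 -1.19 and -0.95) and not called on the even ones (log2 -1.54 and -0.80). Of 18 immediate-early and clock genes 1 was higher, the repressor BHLHE40 (3.07-fold; log2 1.62 ± 0.21 SE, adjusted p = 1.2e-05; even arrays 1.25), and 2 were lower, the clock activator ARNTL and NFIL3 (log2 -0.74 and -0.72), neither of them called on the even arrays. The count of higher genes was under the share of all genes and that of lower genes near it. The call of CEBPD ended when any 1 of replicates 1, 2 and 3 of 1 dpn or replicates 1, 2, 4, 5 and 6 of 28 dpn was left out (adjusted p 0.0554 to 0.103, limma). KLF9 likewise lost its call without any 1 of replicates 1, 2, 3 and 5 of 1 dpn or replicates 1, 4 and 5 of 28 dpn (adjusted p 0.0601 to 0.0854). ARNTL likewise lost its call without any 1 of replicates 1, 2, 3 and 5 of 1 dpn or replicates 1, 2, 4 and 5 of 28 dpn (adjusted p 0.0541 to 0.0977).

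More cell cycle genes were higher than lower, with the fall of CDKN3 the largest change of the list. Of 26 measured 9 were higher and 2 lower, and 12 and 2 on the even arrays, although centring left 5 higher and 4 lower and quantile normalization 6 and 2. Levels were low: the mitotic kinase AURKB ranged from 15.7 to 157 (median 39.5) at 1 dpn and from 128 to 279 (median 201) at 28 dpn (log2 1.78 ± 0.32 SE, adjusted p = 3.0e-04; even arrays 2.07). Thymidylate synthase TYMS, which makes a DNA precursor, was below background at 1 dpn (3.80 to 60.9) and 69.0 to 145 (median 101) at 28 dpn, at least 1.34-fold higher (log2 1.89 ± 0.35 SE, adjusted p = 5.0e-04). UBE2C, which marks mitotic proteins for destruction, rose 2.53-fold with overlap (log2 1.34 ± 0.47 SE, adjusted p = 0.0430; even arrays 2.47). The other lower gene was the cyclin CCND2 (log2 -0.75; even arrays -0.99). The call of UBE2C ended when any 1 of replicates 1, 4 and 6 of 1 dpn or replicates 1, 2, 4, 5 and 6 of 28 dpn was left out (adjusted p 0.0637 to 0.117, limma).

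Most of the called genes of protein breakdown and folding were lower. Of 35 proteasome and atrophy genes 13 were lower and 0 higher by limma with all arrays (15 and 0 at an unadjusted p under 0.05; median log2 -0.35), and 24 and 1 on the even arrays (median -0.95). The low arrays alone gave 11 lower and 3 higher (median -0.11), so the size of the fall depended on the newborn arrays used. After quantile normalization 13 were lower and after centring 16. Both scalings lowered the median probe set (log2 0.10 as deposited, -0.036 and -0.092), so a fall that keeps its direction under them is not thereby tested. The catalytic-core subunit PSMB4 ranged from 12390.4 to 29283 (median 17033) at 1 dpn and from 7837 to 9133 (median 9067) at 28 dpn, without overlap (2.02-fold lower; log2 -1.01 ± 0.17 SE, adjusted p = 1.3e-04; even arrays -1.34). PSMA7, also of the core, ranged from 27752 to 53683 (median 44256) at 1 dpn and from 16979 to 21565 (median 19121) at 28 dpn, without overlap (2.13-fold lower; log2 -1.09 ± 0.16 SE, adjusted p = 3.5e-05; even arrays -0.67). The autophagy receptor SQSTM1 fell 2.04-fold (log2 -1.03 ± 0.27 SE, adjusted p = 0.00759; even arrays -1.39), and the autophagy regulator TP53INP2 2.38-fold (log2 -1.25 ± 0.38 SE, adjusted p = 0.0185), the latter without a call on the even arrays. The even-array rise was that of ubiquitin UBB (log2 0.56). Of the atrophy ligases FBXO32 was not called (log2 0.16 and -1.23) and TRIM63 had no named probe set here.

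Of 36 heat shock proteins and chaperones 13 were lower and 2 higher (median log2 -0.27), and 15 and 1 on the even arrays (median -0.65). The low arrays alone gave 11 lower and 8 higher (median -0.14), so the median lay lower against the even arrays. HSPE1, HSPA9 and HSPB6, given next, fell by less on the even arrays than with all arrays. HSPE1, the mitochondrial co-chaperonin, ranged from 15639 to 59991 (median 45336) at 1 dpn and from 7619 to 14899 (median 11151) at 28 dpn, without overlap (3.63-fold lower; log2 -1.86 ± 0.25 SE, adjusted p = 1.7e-05; even arrays -1.15). Replicate 1 had its lowest newborn value, 15639. Mitochondrial HSPA9, which draws proteins across the inner membrane, ranged from 11224 to 24643 (median 21056) at 1 dpn and from 7274 to 9752 (median 8732) at 28 dpn (2.24-fold lower; log2 -1.16 ± 0.18 SE, adjusted p = 6.2e-05; even arrays -0.96). The small heat shock protein HSPB6 fell by 1.24 on the log2 scale with all arrays and was not called on the even ones (log2 -0.84). The 2 rises were those of HSPA4 and DNAJB1 (log2 0.89 and 0.75; even arrays 1.19 and 0.20), named after their values were seen.

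Of 58 cytosolic ribosomal proteins 18 were lower and 3 higher (median log2 -0.18), 5 and 0 on the even arrays by limma (8 and 4 at an unadjusted p under 0.05; median -0.067), and 26 and 2 after quantile normalization. On the even arrays both counts were under the shares of all genes. RPL3, at the catalytic centre of the large subunit, ranged from 18012 to 35744 (median 23583) at 1 dpn and from 7703 to 11215 (median 8897) at 28 dpn, without overlap (2.66-fold lower; log2 -1.41 ± 0.20 SE, adjusted p = 2.8e-05; even arrays -1.46). RPL31 and RPLP2 fell on both sets of arrays (log2 -0.83 and -0.92; even arrays -0.63 and -1.16), and RPL37 with all arrays alone (log2 -1.08 and -0.46). Translation factors went both ways, 7 of 33 higher and 4 lower, not far from the shares of all genes (3 and 6 on the even arrays; 3 and 8 after centring). The helicase EIF4A2 ranged from 4815 to 18275 (median 6954) at 1 dpn and from 22386 to 29354 (median 25364) at 28 dpn, without overlap (3.05-fold higher; log2 1.61 ± 0.24 SE, adjusted p = 4.8e-05; even arrays 0.68). Its cofactor EIF4H ranged from 5357 to 8367 (median 5939) at 1 dpn and from 2851 to 4897 (median 3056) at 28 dpn (1.85-fold lower; log2 -0.89 ± 0.16 SE, adjusted p = 2.9e-04; even arrays -1.04). EIF5B, which joins the ribosomal subunits, rose 2.79-fold (log2 1.48 ± 0.31 SE, adjusted p = 0.00126; even arrays 1.71).

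Antioxidant and detoxification genes went both ways, 7 of 34 higher and 7 lower (8 and 5 on the even arrays; 6 and 8 after quantile normalization). With all arrays both counts were somewhat over the shares of all genes. Selenoprotein W, SELENOW, an abundant selenoprotein of muscle, ranged from 608 to 1409 (median 658) at 1 dpn and from 2093 to 5468 (median 3889) at 28 dpn, without overlap (4.54-fold; log2 2.18 ± 0.23 SE, adjusted p = 1.1e-06; even arrays 1.47). The mitochondrial peroxiredoxin PRDX3 rose 2.79-fold (log2 1.48 ± 0.18 SE, adjusted p = 6.3e-06; even arrays 1.37) and the retinaldehyde dehydrogenase ALDH1A1 2.89-fold (log2 1.53 ± 0.32 SE, adjusted p = 0.00124; even arrays 2.23). Thioredoxin TXN was lower by both its probe sets, and its reductase TXNRD1 at log2 -1.16 (even arrays -0.86, not called).

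Most measured genes of antigen presentation were higher with all arrays. Of 23 genes of the swine major histocompatibility complex (SLA) and antigen presentation 18 were higher and 2 lower (median log2 1.08), 7 and 1 on the even arrays (median 0.90) and 10 and 2 after centring. Both exceptions with all arrays were the class I light chain B2M (log2 -0.51) and the class II transactivator CIITA (-0.87). The class I gene SLA-2 ranged from 736 to 5756 (median 1183) at 1 dpn and from 6741 to 21468 (median 13257) at 28 dpn, without overlap (log2 3.03 ± 0.38 SE, adjusted p = 6.8e-06; even arrays 1.81). The class II chain SLA-DRA ranged from 236 to 1276 (median 536) at 1 dpn and from 1774 to 6237 (median 4432) at 28 dpn, without overlap (log2 2.87 ± 0.37 SE, adjusted p = 1.1e-05; even arrays 1.87). The invariant chain CD74, which guides class II chains to the endosome, ranged from 23.5 to 164 (median 132) at 1 dpn and from 311 to 926 (median 773) at 28 dpn, without overlap (log2 2.74 ± 0.37 SE, adjusted p = 1.6e-05; even arrays 2.07). SLA genes are close copies of one another and vary between animals, so a probe set can read more than 1 gene or allele.

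Of 25 interferon-stimulated genes 16 were higher and 0 lower by limma (18 and 0 at an unadjusted p under 0.05; median log2 1.33), and 9 and 0 on the even arrays (16 and 0; median 1.37). Centring left 14 higher. Their summed signal was 4242 to 8311 at 1 dpn and 9613 to 21155 at 28 dpn, without overlap. The RNA sensor DDX58 ranged from 13.6 to 70.7 (median 35.9) at 1 dpn and from 118 to 444 (median 214) at 28 dpn, without overlap (log2 2.22 ± 0.30 SE, adjusted p = 1.6e-05; even arrays 1.73). EIF2AK2, the kinase that halts translation on viral RNA, ranged from 2.10 to 97.2 (median 52.8) at 1 dpn and from 164 to 389 (median 197) at 28 dpn (log2 1.97 ± 0.32 SE, adjusted p = 1.3e-04; even arrays 2.90). The guanylate-binding protein GBP2 (log2 2.24 ± 0.39 SE, adjusted p = 2.4e-04) and the antiviral enzyme RSAD2 (log2 1.92 ± 0.54 SE, adjusted p = 0.0130) rose with overlap between the ages.

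Part of the immune cell markers were also higher. Of 14 macrophage markers 7 were higher and 0 lower by limma (8 and 0 at an unadjusted p under 0.05), and 2 and 0 on the even arrays (6 and 0), where the 2 higher were near the share of all genes. Their summed signal ran from 2278 to 4907 at 1 dpn and from 4011 to 14743 at 28 dpn, with overlap. The complement chain C1QC ranged from 394 to 2024 (median 492) at 1 dpn and from 1312 to 6185 (median 3868) at 28 dpn (log2 2.21 ± 0.39 SE, adjusted p = 2.9e-04), but missed the call on the even arrays (log2 1.05), as did LAPTM5 and the Fc receptor FCGR3A (log2 2.15 and 2.10; even arrays 1.64 and 1.17). FCER1G, a signalling chain of Fc receptors, was called on both (log2 1.43 ± 0.32 SE, adjusted p = 0.00220; even arrays 1.32), and the scavenger receptors CD163 and MRC1 stood at log2 -0.13 and -0.03. What part these cells have in the SLA and interferon changes was not tested.

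Of 14 markers of T and NK cells 5 were higher and 0 lower by limma (7 and 0 at an unadjusted p under 0.05), with a summed signal of 447 to 1093 at 1 dpn and 1192 to 3344 at 28 dpn. On the even arrays 3 were higher and 0 lower (6 and 0 at an unadjusted p under 0.05). The cytolytic granule protein GNLY ranged from 28.4 to 199.6 (median 115) at 1 dpn and from 304 to 949 (median 600.2) at 28 dpn, without overlap (5.49-fold; log2 2.46 ± 0.37 SE, adjusted p = 4.8e-05; even arrays 3.71). The chemokine CCL5 was at or below background in every newborn animal and read 133, 376, 99.9, 174, 985 and 843 at 28 dpn (at least 3.75-fold; log2 2.83 ± 0.61 SE, adjusted p = 0.00182). Replicates 5 and 6 were thus highest for CCL5, as for CYP3A29. The T cell receptor chain CD247 rose at least 1.36-fold (log2 1.88 ± 0.30 SE, adjusted p = 1.0e-04), while CD3E (log2 0.18) and CD4 (-0.46) were not called. Of 4 B and plasma cell markers 0 were higher and 0 lower by limma (1 and 0 at an unadjusted p under 0.05). The mast cell receptor KIT (log2 1.02 ± 0.26 SE, adjusted p = 0.00692) was the call among 6 neutrophil and mast cell markers.

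**Figure D5:**
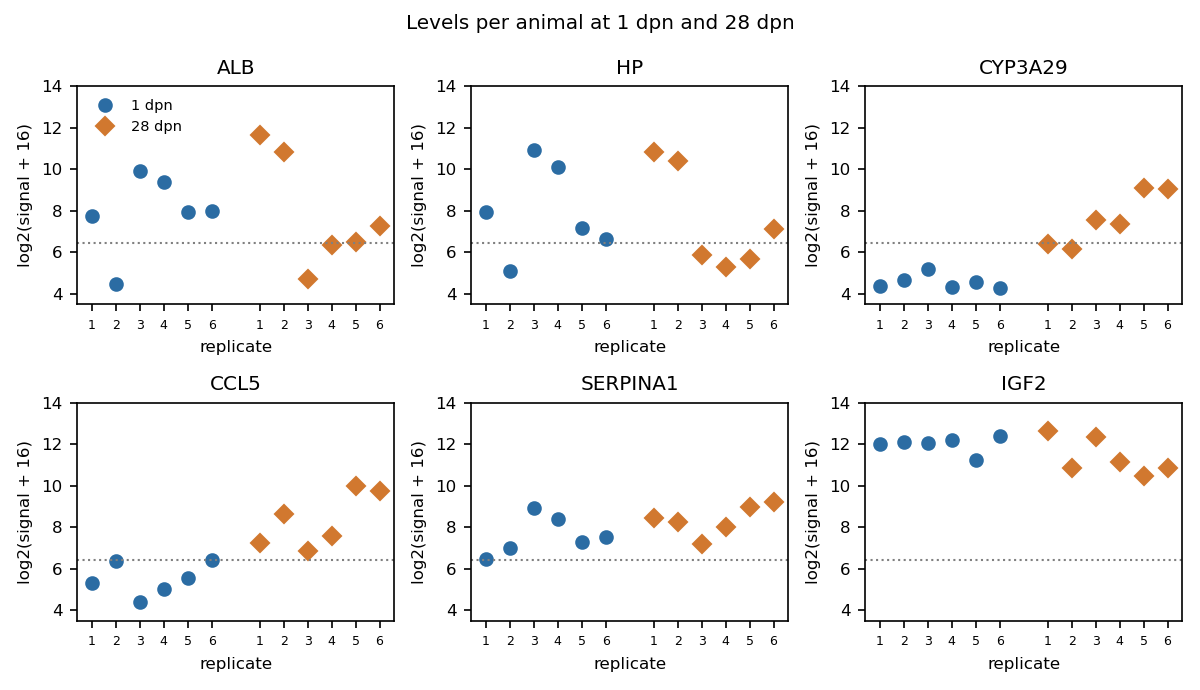
Signal of 6 genes in each of the 12 animals (y axis, log scale; x axis, stage and replicate), with a dotted line at background. ALB and HP stand high in replicates 3 and 4 of 1 dpn and 1 and 2 of 28 dpn, CYP3A29 and CCL5 in replicates 5 and 6 of 28 dpn, and IGF2 in replicates 1 and 3 of 28 dpn.

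Endothelial markers rose in part, 9 of 16 higher and 1 lower (7 higher on the even arrays). Their summed signal overlapped between the ages, 23048 to 38644 and 23341 to 32017. RAMP2, the adrenomedullin receptor partner, ranged from 365 to 1099 (median 603) at 1 dpn and from 1789.5 to 2712 (median 2356) at 28 dpn, without overlap (3.50-fold; log2 1.81 ± 0.22 SE, adjusted p = 6.0e-06; even arrays 1.09). The receptor TIE1 (mean signals 52.6 to 228; log2 2.03 ± 0.33 SE, adjusted p = 1.1e-04) and its pathway's ligand ANGPT2 (47.6 to 217; log2 1.96 ± 0.22 SE, adjusted p = 2.3e-06) rose from below background, and the tight-junction protein CLDN5 by log2 1.43 on both sets of arrays. Von Willebrand factor VWF rose 2.78-fold (log2 1.47 ± 0.28 SE, adjusted p = 5.1e-04) but missed the call on the even arrays (log2 0.61). The water channel AQP1 was the lower one (log2 -1.11; even arrays -0.74, not called).

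Among pericyte and smooth muscle markers 3 of 9 were higher and 1 lower. The pericyte regulator RGS5 ranged from 583 to 1352 (median 796) at 1 dpn and from 1333 to 2781 (median 2518) at 28 dpn (2.77-fold; log2 1.47 ± 0.23 SE, adjusted p = 6.3e-05; even arrays 1.60), while the receptor PDGFRB ranged from 4384 to 9738 (median 8455) at 1 dpn and from 2514 to 4293 (median 3584) at 28 dpn (2.06-fold lower; log2 -1.05 ± 0.20 SE, adjusted p = 4.7e-04; even arrays -0.44, not called). Fibroblast markers gave 2 of 11 higher and 2 lower, not far from the shares of all genes. The glycoprotein PDPN ranged from 1272 to 10354 (median 2392) at 1 dpn and from 652 to 1053 (median 853) at 28 dpn, without overlap (3.26-fold lower; log2 -1.71 ± 0.33 SE, adjusted p = 6.1e-04; even arrays -2.09), the chemokine CXCL14 rose 2.74-fold (log2 1.45 ± 0.25 SE, adjusted p = 2.2e-04), and the homeobox gene MEOX2 rose from a mean below background (32.7 to 128; log2 1.66 ± 0.30 SE, adjusted p = 3.9e-04). Of 32 collagens and matrix genes 4 were higher and 4 lower (5 and 1 on the even arrays), a little under the shares of all genes with all arrays. The fibrillar collagen COL1A2 ranged from 363 to 854 (median 482) at 1 dpn and from 832 to 2333 (median 1846) at 28 dpn (3.24-fold; log2 1.69 ± 0.24 SE, adjusted p = 3.0e-05; even arrays 1.30), fibronectin FN1 rose by log2 0.79 (even arrays 1.02), and COL5A1 fell with all arrays alone (log2 -1.06 and -0.32). The call of COL5A1 ended when any 1 of replicates 2 and 3 of 1 dpn or replicate 3 of 28 dpn was left out (adjusted p 0.05 to 0.0625, limma).

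Of 10 adipocyte markers 2 were higher and 0 lower by limma (5 and 1 at an unadjusted p under 0.05), the former not far from the share of all genes. The fat hormone ADIPOQ ranged from 48.3 to 130.1 (median 67.8) at 1 dpn and from 137 to 538 (median 226) at 28 dpn (2.92-fold; log2 1.54 ± 0.43 SE, adjusted p = 0.0122), and missed the threshold on the even arrays (log2 1.84, adjusted p = 0.0665). Adipsin CFD rose 2.41-fold (log2 1.27 ± 0.18 SE, adjusted p = 2.2e-05; even arrays 1.12), while the fatty acid carrier FABP4 was not called (log2 -0.67). Beta-globin HBB ranged from 131 to 232 (median 150.2) at 1 dpn and from 252 to 402 (median 275) at 28 dpn, without overlap (1.72-fold; log2 0.78 ± 0.18 SE, adjusted p = 0.00350), as 1 of 2 called among 6 erythroid markers, beside the embryonic chain HBE1 (mean signals 50.9 to 106; log2 1.19 ± 0.42 SE, adjusted p = 0.0449). Of 7 Schwann cell and nerve markers 2 were higher, S100B (log2 1.06 ± 0.20 SE, adjusted p = 5.6e-04) and CNP (log2 1.35 ± 0.37 SE, adjusted p = 0.0103), neither called on the even arrays, where 0 were higher and 0 lower (1 and 0 at an unadjusted p under 0.05). Pancreas markers gave 0 calls of 8 by limma (0 and 0 at an unadjusted p under 0.05). The call of HBE1 ended when any 1 of replicates 1, 2, 5 and 6 of 1 dpn or replicates 1, 2, 3, 4 and 5 of 28 dpn was left out (adjusted p 0.0570 to 0.107, limma).

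Some called changes depended on which newborn arrays entered, and the 5 rises and 5 falls that moved most between both sets are given here. SAR1B, a coat protein of vesicle export, read 194 to 327 on the low newborn arrays and 8113 and 3865 on the even ones, against 4674 to 11237 (median 5789) at 28 dpn (log2 3.05 and, on the even arrays, 0.18). The antiprotease SLPI read 9.40 to 772 on the low newborn arrays and 2772 and 803 on the even ones, against 551 to 3998 (median 2228) (log2 3.22 and 0.44). A probe set of the proteasome subunit PSMD11 read 137 to 263 on the low newborn arrays and 5246 and 2611 on the even ones, against 2030.3 to 3475 (median 2815) (log2 2.34 and -0.41). In SAR1B and PSMD11 both even newborn arrays lay far above the low ones and near the older animals. The ubiquitin ligase MKRN1 (log2 2.49 and -0.14) and LOC100512700 (1.86 and -0.65) had the opposite direction on the even arrays, as had PSMD11. The brightest probe sets of SAR1B, PSMD11 and MKRN1 gave log2 0.85, -0.35 and 0.046 with all arrays, the latter 2 without a call. On the even arrays they gave log2 -0.011, -0.83 and -0.655, and only that of PSMD11 was called. The call of LOC100512700 ended when any 1 of replicates 2, 3, 4 and 5 of 1 dpn or replicates 1, 3, 4, 5 and 6 of 28 dpn was left out (adjusted p 0.0591 to 0.115, limma).

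Among the falls a probe set of IGF2 read 875 to 1043 on the low newborn arrays and 84.8 and 104 on the even ones, against 17.8 to 196 (median 107) at 28 dpn (log2 -2.07 and 0.014). QDPR, which regenerates the cofactor tetrahydrobiopterin, gave log2 -1.28 and 0.29, and the acyl-CoA thioesterase ACOT7 -2.55 and -0.94. The other way round, TNFRSF12A, the receptor of the cytokine TWEAK, read 983 to 4009 on the low newborn arrays and 9281 and 14356 on the even ones, against 339 to 1687 (median 1064), so its fall was larger on the even arrays (log2 -1.90 and -3.73). PNMT, which makes adrenaline, did likewise (log2 -1.73 and -3.41), with all values at 28 dpn below background. These 10 were chosen for that dependence, so it is a description and not a test. The call of QDPR ended when any 1 of replicates 2, 3, 4 and 5 of 1 dpn or replicates 1, 2, 3, 5 and 6 of 28 dpn was left out (adjusted p 0.0529 to 0.0882, limma). TNFRSF12A likewise lost its call without any 1 of replicates 1 and 6 of 1 dpn or replicates 1 and 6 of 28 dpn (adjusted p 0.0573 to 0.0639).

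Insulin-like growth factor IGF2 differed between its probe sets. Its 13 probe sets changed by log2 -2.07 to 1.84. The brightest read 2403 to 5277 (median 4295) at 1 dpn and 6312, 1835, 5130.4, 2222, 1377 and 1818 at 28 dpn, and was not called (log2 -0.62 ± 0.36 SE, adjusted p = 0.245). Replicates 1 and 3 of 28 dpn stood above the other 4 by this probe set and by others of the gene. Of 352 genes with 2 or more called probe sets, 97 (27.6%) had calls in opposite directions. On the even arrays the count was 18 of 215 (8.37%), and on the low arrays 205 of 502 (40.8%).

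The 8 named genes with the widest spread among the older animals at a mean signal of 500 or more were ALB, HP, AHSG, TF, COMP, RSF1, TAF1D and ARG2. The first 4 are plasma proteins of the liver, and haptoglobin HP read 1808 and 1330.1 in replicates 1 and 2 and 23.6 to 125 in the other 4. COMP, a cartilage and tendon matrix protein, ranged from 42.6 to 2839 at 28 dpn and from 18.2 to 2864 at 1 dpn. The arginase ARG2 ranged from 99.2 to 1645 and from 87.6 to 3732. None of the 8 was called between the ages, although ARG2 was without replicate 1 of 1 dpn (adjusted p = 0.0308). Without the 4 arrays that held most liver transcripts, a setting chosen after seeing the data, 3259 probe sets were called, with 8 arrays left in the comparison. In that setting 10 glycolysis genes, 11 antigen-presentation genes, 13 interferon-stimulated genes and 5 cell cycle genes were higher, against 10, 18, 16 and 9 with all arrays. Of the 4 arrays left out, 2 were low newborn arrays. The setting left 8 proteasome and atrophy genes, 9 heat shock genes and 3 respiratory chain genes lower, against 13, 13 and 15. Of the 18 measured hepatocyte markers 1 was called higher with all arrays, CYP3A29, and 1 lower, the urea cycle enzyme CPS1 (log2 -1.40), both counts under the shares of all genes. On the even arrays CYP3A29 kept its call (log2 3.29) and CPS1 did not (log2 -0.99).

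Set beside the other stages, the genes named above fell into several courses, given as mean signals with no test. PEG10 read 17077 at 94 dpc, 3243 at 1 dpn, 381 at 28 dpn and 152 at 188 dpn, lower at each later stage. MSS51 read 411, 192, 2817 and 16805, higher at each stage after 1 dpn, whereas MYH2 read 6943, 12005, 74914 and 79859, about level between 28 and 188 dpn. HSPB7 (633, 8179, 1823 and 2310.1) and CPT1B (842, 7116, 2951 and 609) were highest in the newborn. ANKRD1 was low at 94 dpc and 28 dpn and high at the other ages (679, 6457, 859.8 and 12569). SLC16A3 was highest at 28 dpn (518, 599, 3894 and 917), as were SLA-2 (2973, 2041, 13661 and 4349) and CCL5 (45.6, 35.2, 435 and 110.1).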

How the data were processed

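Total RNA, cleaned after a DNase step, was biotin-labelled from 0.5 µg and hybridised to the Affymetrix porcine array, per the labels. The deposited values are linear probe set intensities from GCOS 1.1.1, per the submitters' processing notes. The deposited intensities have a mean of 500.0 on every array after trimming 2% at each end, so they were taken as globally scaled. The algorithm and target are not given in the sources used here, nor are detection calls. The table held 24123 probe sets, and leaving out 124 controls gave 23999 to test. Of these 10069 carried 1 gene symbol (6765 symbols), 198 several and 13732 none. The RefSeq gene table held 9961 of the named probe sets, and the other 108 kept the platform's symbol.

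Groups followed the labelled stage. limma 3.58.1 in R 4.3.3 was run on log2(signal + 16) with 1 mean per stage over all 22 arrays. Moderated p-values were adjusted by Benjamini-Hochberg over all probe sets and called under 0.05. The script was tested on simulated data. Folds are 2 to the power of the log2 difference and understate changes of dim probe sets. Background was the 95th percentile of 23 controls for absent transcripts, a signal of 69.7. Where all values of the dimmer stage lay below it, the fold is a lower bound against background, and where only the mean did, means are given. The number of arrays limits the precision.

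Gene lists use the brightest probe set of each gene. Members and lists were chosen with earlier results of these data known. Named were the 15 largest rises and falls called on all and on the even arrays without overlap, and up to 4 called members per list. Genes given whatever their values were named too, as were the 5 rises and 5 falls that moved most between array sets and the 8 genes most variable at 28 dpn. List members named beyond these were chosen after their values were seen. Alternatives were other array sets, a GAPDH 5′ to 3′ ratio as covariate, quantile normalization, median centring, pseudocounts of 1 and 64, trended variance, array weights, brighter probe sets alone, gene means and each animal left out. Probe sequences and genome coordinates were not used here.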

Additional observations from a re-analysis of the deposited data

Results flagged for a closer look

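In 34 of 368 groups of 6 animals 1 animal stood apart from the other 5, its gap to the nearest being over 62.5% of the group's range on the log2 scale. Chance would give about 1 in 20 such groups among genes not picked by their values, and genes of one array are not independent. The genes here included some picked for a wide spread at 28 dpn or for dependence on the newborn arrays. The count of 34 is therefore a description and not a test. Of the 34, 18 were at 1 dpn and 16 at 28 dpn.

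At 1 dpn 13 were in replicate 1, one of the even arrays. It was lowest for GPD1 at a signal of 154, FBP2 at 395, COX7A2 at 15990, NDUFC2 at 7145, PPARGC1A at 119, HSPE1 at 15639, COL5A1 at 949, ACOT7 at 80.2 and ARG2 at 87.6. The nearest animal read 1642 for GPD1 and 7007 for FBP2. Replicate 1 was highest for CAPN3 at 8351, SYNM at 6848, EIF4H at 8367 and CYR61 at 6889. Replicate 2 was lowest for RSF1, a chromatin remodelling factor, at 107. Replicate 5 was highest for TYMS at 60.9, below background, and lowest for the brightest IGF2 probe set at 2403. Replicate 6 was lowest for MYH7 at 12284 and for TAF1D, a factor of ribosomal RNA transcription, at 73.1.

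At 28 dpn 8 were in replicate 3. It was lowest for GAMT at 2434, MDK at 195.0, RSF1 at 124 and the smooth muscle protein CNN1 at 764, and highest for SYNM at 8676, GHR at 782, EIF4H at 4897 and SQSTM1 at 10495. Replicate 6 held 5, lowest for TNNI1 at 20527, PHLDA2 at 84.7, COL1A2 at 832 and RGS5 at 1333, and highest for EIF2AK2 at 389. Replicate 4 was lowest for MYH2 at 40150 and highest for QDPR at 3586. Replicate 2 was lowest at 17.8 for the IGF2 probe set whose fall depended on the arrays. What sets these animals apart was not tested.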

How the results depend on the processing

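Against 5357 calls, the 12 arrays alone gave 3347 (2140 higher, 1207 lower), and the 8 arrays without most liver transcripts, a setting chosen after seeing the data, 3259 (2145 higher, 1114 lower). Calls of lower signal numbered 2013, against 1293 on the even arrays and 1219 with the GAPDH ratio as covariate. Centring gave 2201 higher and 3342 lower, through the shift of the median. Leaving out 1 animal gave 4619 to 6082 calls, 2907 to 3669 higher and 1712 to 2413 lower. The 3972 even-array calls became 1878 when fitted without the other stages, and 3135 to 3348 without 1 of its 2 newborn arrays, the lone one assumed to vary like the other stages. Of 172 called probe sets named by the rule, 117 kept their call on the even arrays, 48 lost it and 7 reversed: MYF6 at log2 -0.098, NDUFC1 at 0.11, PSMD11 at -0.41, MKRN1 at -0.14, LOC100512700 at -0.65, a probe set of IGF2 at 0.014 and QDPR at 0.29. LOC100512700 also reversed with the covariate (log2 -0.41). None reversed with 1 animal left out, and 22 lost their call. Quantile normalization ended 8 of these calls, centring 10, the 12 arrays alone 27, the covariate 47 and leaving out the liver-transcript arrays 40. Of 90 list counts, 56 stayed within 1.5 times on the even arrays and 82 after quantile normalization. Part of these were counts of 0 that stayed 0, which say little about stability. The 4 low newborn arrays alone gave 6496 calls. Apart from the median shift, the cause of these changes was not tested. No paired analysis was possible because the labels give no replicate numbers that the stages share. Of the called probe sets 270 had both means below background, where a direction rests on dim signals.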

Other observations

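Replicates 5 and 6 of 28 dpn, which read highest for CYP3A29 and CCL5, also read highest of the 6 for the T cell kinase LCK, at 204 and 169, against 21.6 to 120 in the other 4. They were highest as well for the antiprotease SERPINA1, like CYP3A29 a listed hepatocyte marker, at 487 and 566 against 130 to 329. These genes were picked after their values were seen, and the order was not tested.

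Of the 5357 called probe sets 230 had all 6 values of the dimmer age below background, so that only a bound on their fold can be given.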
